A study of Mus musculus with 34 samples.

Results

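Eif1a, its X-linked relative Eif1ax and 3 intron-poor copies named Gm2016, Gm2022 and Gm5662 were followed across mouse preimplantation development. All 5 symbols were found among the 49686 rows of the zygote and late 2-cell tables and the 51734 rows of the blastocyst table. The genes were chosen by measured values, the high level of the copies in late 2-cell embryos and the difference of Eif1ax between the genotypes at that stage. The stage levels, and that difference, are therefore given as a description with no test. Each library was 1 embryo grown from a zygote injected with mRNA for wild-type CHK1 (WT) or for a mutant form written R442Q. CHK1 stops cells with damaged or unfinished DNA from entering mitosis. No group was uninjected. WT CHK1 was given to 5 embryos taken as zygotes, 4 taken at the late 2-cell stage and 7 taken as blastocysts, and R442Q CHK1 to 6, 5 and 7. The zygotes and late 2-cell embryos had no inhibitor per their labels, and all 14 blastocysts were cultured with a CHK1 inhibitor at 30 nM. The strain and age of the animals are not given in the labels used here. No label says which embryos came from the same mother or injection session, so p-values measure only the spread between these embryos.

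Eukaryotic initiation factor 1A is a small protein that binds the A site of the small ribosomal subunit, helps recruit the initiator tRNA and, with eIF1, holds the scanning complex open until a start codon is reached. Mice carry more than one gene for it, among them Eif1ax on the X chromosome. A cluster of intron-poor relatives on chromosome 12 belongs to the set of transcripts that mouse embryos make when their genome is first switched on at the 2-cell stage, together with the Zscan4, Tdpoz and Tcstv families. Whether the copies make protein in these embryos was not measured.

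The coding sequences show why the copies can be told from Eif1ax and hardly from each other. All 5 genes had a coding sequence of 435 bases in GENCODE M21 (GRCm38). Gm2016, Gm2022 and Gm5662 shared 98.4% to 99.1% of these bases with each other, 94.0% to 94.7% with Eif1a and 84.8% to 85.1% with Eif1ax, and Eif1a and Eif1ax shared 85.5%. The stretch of coding bases 231 to 290 is printed 5′ to 3′, with capitals at each base that differs from Eif1ax.
Eif1ax: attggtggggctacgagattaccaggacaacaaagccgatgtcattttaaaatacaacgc
Gm2016: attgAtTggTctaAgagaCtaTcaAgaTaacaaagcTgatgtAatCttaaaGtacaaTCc
Gm2022: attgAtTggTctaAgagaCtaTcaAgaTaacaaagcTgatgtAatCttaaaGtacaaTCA
Gm5662: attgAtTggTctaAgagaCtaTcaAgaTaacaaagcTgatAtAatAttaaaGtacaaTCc
In these 60 bases Gm2016 differed from Eif1ax at 14 positions, and Gm2022 and Gm5662 at 15 each, whereas the 3 copies differed among themselves at 3.

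The same contrast held over whole transcripts. Of the 50-base stretches of Eif1ax transcripts, 0% occurred in another annotated gene, against 2.6% for Eif1a. The share was 81.3% for Gm2016, 97.2% for Gm2022 and 77.9% for Gm5662, so counts of single copies are uncertain and their sum, called the Gm sum here, is given beside them. Gm2016 (chr12:87874072-87877859, plus strand) and Gm5662 (chr12:88270640-88274500, minus strand) are annotated with 2 exons and transcripts of 1766 and 1840 bases, and Gm2022 (chr12:87895370-87895804, plus strand) is annotated as its 435 coding bases alone, in 1 exon. Eif1ax lies at chrX:159372178-159389928 on the plus strand, with transcripts of 416 and 5172 bases. A search of the annotation for coding sequences of equal length that shared at least 80% of bases with Eif1ax found 13 further genes, all on chromosome 12 between 87494721 and 88324026. They are called the related genes here, and the 3 copies lie among them.

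The promoter table (RefSeq, GRCm38.p6; 250 bases before to 50 after each start) held Eif1ax and 5 of the related genes. Eif1ax and Gm4027, a related gene, are shown because their levels moved differently between stages and groups. Capitals mark CG pairs and the letters TATATA, overlapping matches included, and Eif1ax has 31 CG pairs and 78.0% G or C, against 6 pairs and 49.0% in Gm4027 and a median of 7 pairs over all 32841 promoters of the table.
Eif1ax, chrX:159371928-159372227, plus strand: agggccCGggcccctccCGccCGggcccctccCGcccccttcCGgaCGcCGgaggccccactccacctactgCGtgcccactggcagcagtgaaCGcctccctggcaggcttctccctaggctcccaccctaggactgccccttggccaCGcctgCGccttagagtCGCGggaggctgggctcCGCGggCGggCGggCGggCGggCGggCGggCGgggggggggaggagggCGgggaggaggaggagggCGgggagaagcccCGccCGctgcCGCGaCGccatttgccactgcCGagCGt
Gm4027, chr12:87618659-87618958, plus strand: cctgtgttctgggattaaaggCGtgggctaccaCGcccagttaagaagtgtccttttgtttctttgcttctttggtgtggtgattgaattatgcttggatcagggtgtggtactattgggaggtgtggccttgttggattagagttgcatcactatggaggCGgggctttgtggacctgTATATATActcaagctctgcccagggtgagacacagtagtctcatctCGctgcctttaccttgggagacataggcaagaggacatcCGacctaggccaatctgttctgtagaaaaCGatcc
TATATA was searched on both strands after the sequences had been seen. It is in the promoters of Gm4027, BB287469 and Gm21319, and not in those of Gm21936, Gm6803 and Eif1ax, and 5.7% of all promoters of the table hold it. The longest run of bases that Gm4027 shares with another related promoter is 231 for BB287469, 23 for Gm21319, and 8 for Gm21936 and for Gm6803, against 7 for Eif1ax. The sequences at the annotated starts are thus not all alike. The window of Gm21936 (chr12:87795250-87795549) runs into its coding bases, which are annotated from 87795512. Starts annotated at different places and promoters of different sequence cannot be told apart here.

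Each zygote library held 7183632 to 11296522 counts and each late 2-cell library 5727956 to 8916343. Levels are in CPM, the count scaled to a library total of 1000000, and 3 counts corresponded to 0.266 to 0.418 CPM in zygotes and 0.337 to 0.524 CPM at the later stage. Blastocyst depth is unknown in counts. Stage labels were checked with marker lists, and their levels are given as summed FPKM, which scales fragments to transcript length and depth. Maternal markers (6 genes) summed to 3464 to 7631 in zygotes, 1211 to 6879 in late 2-cell embryos and at most 4.28 in blastocysts. Markers of the 2-cell stage (7 genes, among them Zscan4c and Tcstv1) summed to 78.1 to 208 in zygotes, 140.5 to 2550 in late 2-cell embryos and at most 3.99 in blastocysts. Zygotes and late 2-cell embryos thus overlapped on each of these 2 lists, which do not separate every embryo of the 2 stages. Blastocyst markers (6 genes, among them Cdx2 and Nanog) summed to at least 1188 in blastocysts and at most 45.1 at the earlier stages. Markers of cumulus cells (6 genes) reached at most 19.9, and sperm markers (3 genes) at most 22.4, in any embryo.

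The 5 genes fell into 3 stage patterns. Eif1ax was the main eIF1A transcript of zygotes, Eif1a was almost absent there and was highest in blastocysts, and the Gm copies were highest in late 2-cell embryos, where the lowest Gm sum was 72.7 FPKM. The highest Gm sums at the other stages were 57.0 FPKM, in WT blastocyst replicate 2, and 29.6 FPKM, in R442Q zygote replicate 2. Fewer cells and less RNA per cell cannot be told apart in whole embryos, and FPKM gives a share of a library, not molecules per embryo. Every blastocyst had the inhibitor and no earlier embryo did, so stage and inhibitor cannot be told apart in blastocyst levels.

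Eif1ax had a median level of 144 FPKM in WT zygotes, 28.2 in WT late 2-cell embryos and 73.1 in WT blastocysts. In R442Q embryos the medians were 134, 149 and 70.4 FPKM. WT embryos thus had their lowest median at the late 2-cell stage, with a log2 change from zygote of -1.71 ± 0.29 (SE, edgeR model of both stages), and R442Q embryos changed by 0.40 ± 0.25. The lowest and highest WT zygotes had 120 and 181 FPKM, and no WT late 2-cell embryo exceeded 53.1 FPKM.

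Eif1a had 1 to 27 counts in any zygote, with median levels of 0.34 FPKM in WT and 0.28 in R442Q. At the late 2-cell stage the medians were 31.4 and 36.5 FPKM, and in blastocysts 103 and 75.8 FPKM. The log2 difference of late 2-cell embryos from zygotes was 6.10 ± 0.58 in WT and 6.05 ± 0.52 in R442Q embryos. Low counts in zygotes limit the precision of these 2 values.

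The 3 copies rose with the late 2-cell stage and were low again in blastocysts. The Gm sum had a median of 0.33 FPKM in WT zygotes, 121 in WT late 2-cell embryos and 1.24 in WT blastocysts, and of 3.05, 567 and 4.44 FPKM in R442Q embryos. Its log2 change from zygote to late 2-cell was 9.34 ± 1.05 in WT and 6.19 ± 0.79 in R442Q embryos, at the 99.5 and 96.5 percentile of 16197 genes. Gm5662 was the most abundant copy, with late 2-cell medians of 86.1 FPKM in WT and 404 in R442Q, followed by Gm2016 with 33.4 and 110 and Gm2022 with 3.05 and 23.3.

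**Figure D1:**
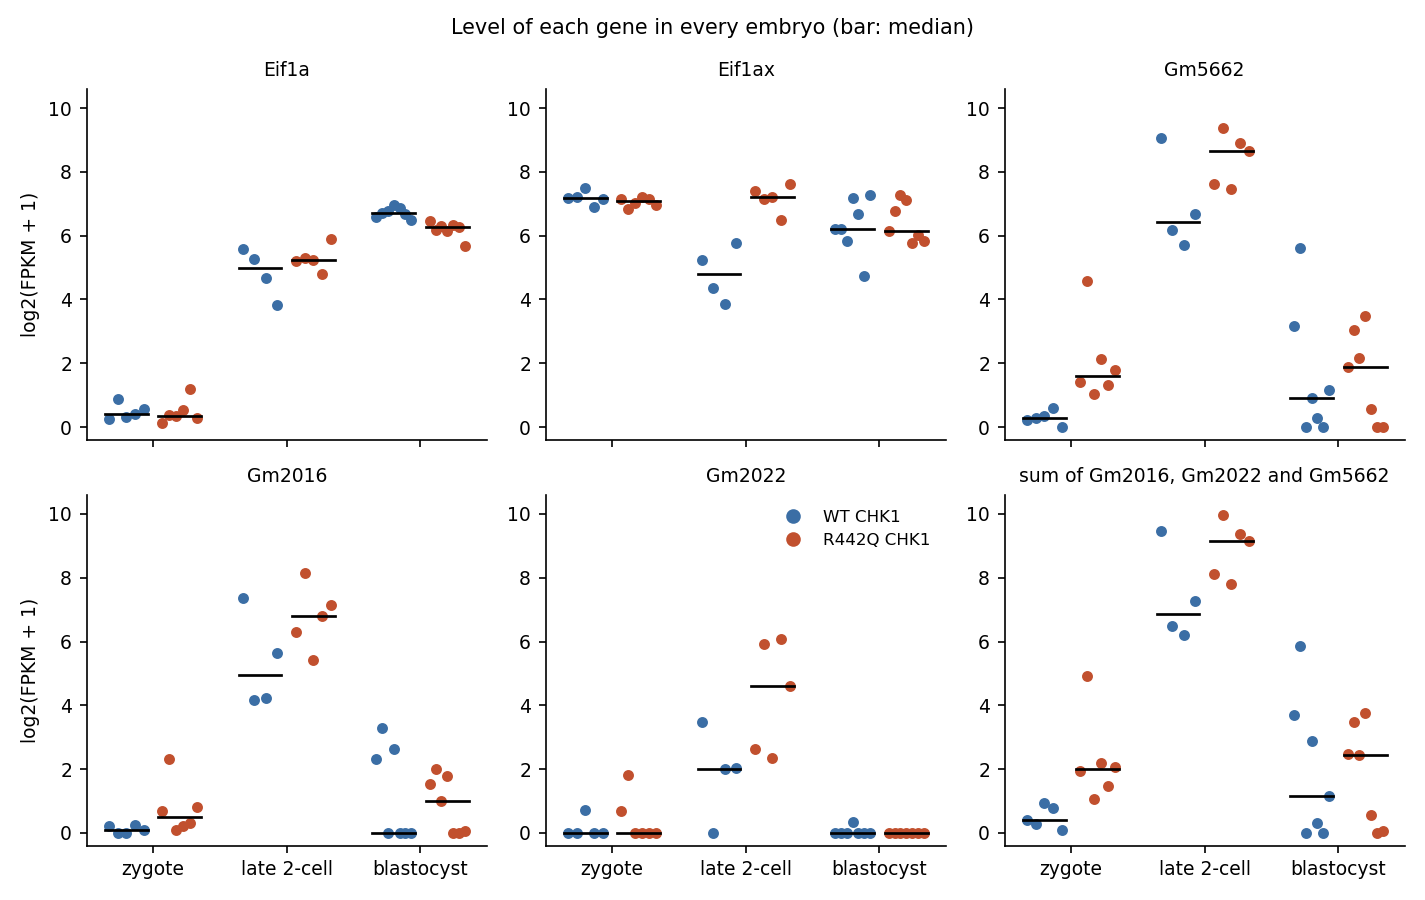
Level of each gene, as log2(FPKM + 1), in every embryo of the 3 stages; each point is an embryo, blue for WT and orange for R442Q, and black bars are medians. Eif1ax is high in zygotes, Eif1a in blastocysts, and the copies in late 2-cell embryos, where the WT median of the summed copies is 121 FPKM.

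Within the Gm sum the split between copies was similar from embryo to embryo at the late 2-cell stage. Gm5662 took 68.1% to 81.5% of the summed counts over the 9 embryos (median 74.8%), Gm2016 took 17.6% to 31.6% (median 24.6%) and Gm2022 at most 1.55% (median 0.30%). On FPKM, which divides by transcript length, the median of Gm2022 was 2.04%. In zygotes the sums were 1 to 337 counts and the shares ranged from 0% to 100% for both Gm2016 and Gm5662. The 3 copies held 34.6% to 54.4% of the counts of the whole chromosome 12 family (the copies and the 13 related genes) in late 2-cell embryos, and 4.36% to 21.3% in zygotes.

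The make-up of the summed FPKM of Eif1a, Eif1ax, the copies and the related genes shifted at each stage. Eif1ax held a median of 96.9% in WT zygotes, 5.94% in WT late 2-cell embryos and 39.4% in WT blastocysts. In R442Q embryos its medians were 81.8%, 11.9% and 52.6%. The copies held 29.6% and 29.8% of the sum in WT and R442Q late 2-cell embryos, and the related genes 55.2% and 58.2%. Eif1a held 51.5% of the sum in WT blastocysts and 47.3% in R442Q blastocysts, for which the table listed 11 of the 13 related genes. The summed level itself was highest at the late 2-cell stage, with medians of 149, 409 and 218 FPKM in WT and 172.5, 1634 and 162 FPKM in R442Q zygotes, late 2-cell embryos and blastocysts.

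**Figure D2:**
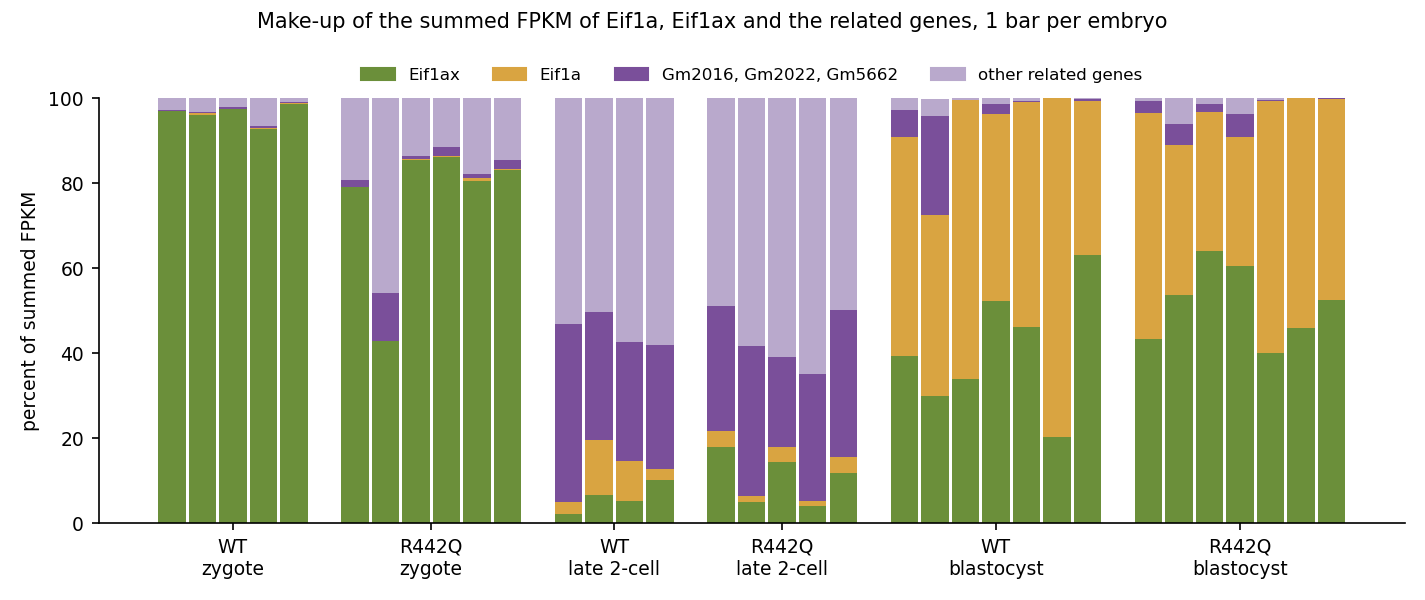
Share of each gene group in the summed FPKM of Eif1a, Eif1ax, the 3 copies and the related genes; each bar is an embryo and the y axis is percent. Eif1ax fills at least 92.7% of the bar in every WT zygote, while R442Q zygotes range from 42.8% to 86.1%.

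In zygotes, the comparison of R442Q with WT asks whether the injected form of CHK1 alters these transcripts within the first cell cycle. Gm5662 was higher in R442Q zygotes, at a low level, and Eif1ax was not called. Of the 5 genes 2 passed the filter on low counts, Eif1ax and Gm5662, and 1 of them was called higher, where over all 12420 genes tested 13.2% were called in either direction. Gm5662 entered the test only through the R442Q group, so nothing is read from that count. Eif1a, Gm2016 and Gm2022 had too few counts for that test.

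Gm5662 was at 0.265, 0.361, 0.455, 0.861 and 0 CPM in WT zygotes 1 to 5. It was at 2.81, 38.8, 1.74, 5.69, 2.59 and 4.12 CPM in R442Q zygotes 1 to 6. The groups did not overlap, and R442Q replicate 2 was far above the rest. Groups without overlap were found for 9.39% of the genes tested.

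The log2 fold change of Gm5662 was 4.71 ± 0.93 (SE, n = 5 and 6), with an adjusted p of 0.00345 (edgeR quasi-likelihood test, Benjamini-Hochberg over all genes tested). Without R442Q replicate 2 it was 3.25, and over the 11 fits that left out 1 zygote the adjusted p ranged from 0.00201 to 0.0128. WT zygotes held only 0 to 6.37 counts of Gm5662, against 16.4 to 285 in R442Q zygotes, so the gene passed the filter only through the group in which it was high and the fold is poorly bounded from above. In the edgeR fit with no filter on low counts, which tested 28656 genes, the log2 fold change was 4.67 ± 0.60 and the adjusted p 4.95e-09. Its SE was smaller than in the main fit on the same counts of Gm5662, so this p is not read as stronger evidence. The edgeR fit of both early stages gave 4.73 ± 0.98 (adjusted p 0.011). With limma on FPKM the value was 1.76 ± 0.49 on the log2(FPKM + 1) scale (adjusted p 0.0282). DESeq2 gave an adjusted p of 0.000102. The ratio of the medians was 9.61 on CPM and the ratio of the means 23.9.

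Gm2016 was at 0 to 0.322 CPM in WT and 0.120 to 6.45 CPM in R442Q zygotes, and the groups overlapped. The highest value was again that of R442Q replicate 2, and the next was 1.24 CPM, in R442Q replicate 6. Gm2016 did not enter the main test, and DESeq2, which tested it, gave 3.74 ± 1.14 on the log2 scale (adjusted p 0.0129). The edgeR fit with no filter gave 3.55 ± 1.03 (adjusted p 0.0197), and the edgeR fit of both early stages 3.58 ± 1.18, which was not called (adjusted p 0.145). Gm2022 was at 0 in 4 of 5 WT and 4 of 6 R442Q zygotes, with at most 0.621 CPM.

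Summed, the 3 copies had 0.530, 0.361, 0.618, 1.18 and 0.113 CPM in WT zygotes 1 to 5. The R442Q zygotes 1 to 6 had 3.94, 45.9, 1.86, 5.96, 2.95 and 5.36 CPM. Every R442Q zygote lay above every WT zygote. The log2 fold change of the sum was 4.41 ± 0.88, and it was 2.96 without R442Q replicate 2 and 1.78 on the log2(FPKM + 1) scale, which understates changes of low genes.

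The related genes were read in the same way. BB287469, Gm4027, Gm5039 and Gm8300 were the 4 of 13 that passed the filter, again through the R442Q zygotes, and all 4 were called higher, with log2 fold changes of 4.25 ± 0.97, 3.99 ± 0.61, 3.03 ± 0.61 and 3.14 ± 0.62 (edgeR adjusted p of 0.00888, 0.000735, 0.00403 and 0.00349). The filter admitted genes that were high in R442Q zygotes, so the 4 of 4 is given as a description. Near-identical genes share reads, so the counts of calls that follow are not counts of separate evidence. With no filter all 13 were tested, and edgeR called 6 higher and 0 lower, where 6.34% of all genes were called in either direction. DESeq2 gave an adjusted p to 6 of the 13 and called 5 of these higher, against 13.5% of all genes with an adjusted p. The edgeR fit of both early stages tested 12 and called 4 higher, BB287469, Gm4027, Gm5788 and Gm8300, so that Gm5039 was not called, against 1.67% of all genes. The median log2 fold change over all genes tested was 0.006. Gm5788 was listed at 0 FPKM in all 5 WT zygotes and at 0.59 to 2.78 FPKM in the 6 R442Q zygotes. Summed over the copies and the related genes, WT zygotes had 2.49 to 9.19 CPM and R442Q zygotes 27.2 to 216 CPM, with no overlap.

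The markers of the 2-cell stage overlapped between the genotypes in zygotes. Their summed level was 107 to 208 FPKM (median 180) in WT and 78.1 to 194 FPKM (median 165) in R442Q zygotes. In R442Q replicate 2, the embryo with the most Gm5662, it was 194 FPKM. Blastocyst markers summed to 0.46 to 4.30 FPKM in WT and 3.42 to 10.7 FPKM in R442Q zygotes, and sperm markers to 3.72 to 13.1 and 5.48 to 16.2 FPKM. The summed cumulus markers separated the genotypes, at 17.0 to 19.9 FPKM in WT and 10.03 to 16.5 FPKM in R442Q zygotes. Of the 6 cumulus genes, only 1 had a median of at least 1 FPKM in zygotes of each genotype. Maternal markers had medians of 6066 FPKM in WT and 4627 FPKM in R442Q. The part of these markers in the result was not tested.

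Eif1ax was at 139, 117, 157, 105 and 114 CPM in WT zygotes 1 to 5 and at 116, 99.0, 98.7, 128, 118 and 106 CPM in R442Q zygotes 1 to 6. The groups overlapped, and the log2 fold change was -0.07 ± 0.13 with an adjusted p of 0.799 in edgeR. Each zygote held 727 to 1243 counts of this gene, so counting error is small beside the spread between embryos.

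**Figure D3:**
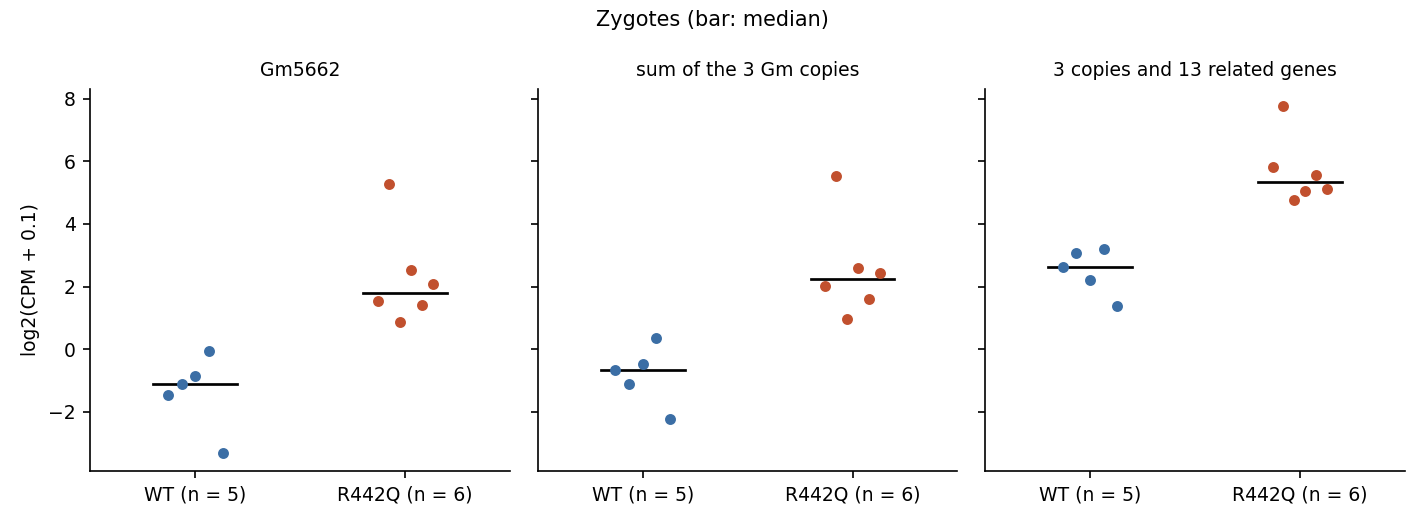
Level in zygotes of Gm5662, of the 3 copies summed and of the copies with the 13 related genes, as log2(CPM + 0.1); each point is an embryo and bars are medians. All 6 R442Q zygotes lie above all 5 WT zygotes in each panel, and R442Q replicate 2 is the highest.

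In late 2-cell embryos the same comparison is made at the stage at which the copies peak. All 5 genes passed the filter, among 13883 genes tested. Only Eif1ax passed the threshold, as did 4.18% of all genes, and nothing is read from that, since Eif1ax was chosen for this difference. Of the other 4 genes edgeR called 0, and Gm2022 alone had an unadjusted p under 0.05, at 0.0261, where 21% of all genes had one.

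Eif1ax was at 55.0, 30.5, 16.1 and 62.2 CPM in WT late 2-cell embryos 1 to 4. It was at 175, 174, 160, 116 and 206 CPM in R442Q embryos 1 to 5. The lowest R442Q embryo lay above the highest WT embryo, and groups without overlap, in either direction, were found for 12.4% of the genes tested. The mean of R442Q was 4.06 times that of WT on CPM and 4.82 times on FPKM, and the log2 fold change of 2.12 ± 0.40 kept its sign in all 9 fits that left out 1 embryo, from 1.84 to 2.42.

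The R442Q late 2-cell embryos, at 88.4 to 195 FPKM, spanned the level of Eif1ax in R442Q zygotes, 112 to 147 FPKM, and the WT late 2-cell embryos lay below all zygotes. On CPM the R442Q embryos were higher at the late 2-cell stage, at 115.9 to 206.0 (median 173.7), than as zygotes, at 98.73 to 127.6 (median 110.9), with some overlap. Maternal markers, transcripts left over from the egg, summed to 1451, 1211, 3110 and 1555 FPKM in WT late 2-cell embryos 1 to 4 and to 4263, 3291, 6879, 4359 and 1619 FPKM in R442Q embryos 1 to 5. The sums of 4 of the 5 R442Q embryos lay above those of all 4 WT embryos, and that of R442Q replicate 5 lay within the WT range. The part of the maternal transcripts in the difference was not tested.

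The fragments of Eif1ax were also spread differently between stages. The transcript length implied by the ratio of counts to FPKM had medians of 867 and 845 bases in WT and R442Q zygotes, and of 1343 and 1074 bases in WT and R442Q late 2-cell embryos. For Gnai3, a gene encoding a G protein subunit that was taken for comparison, the 4 medians lay between 3130 and 3234 bases. RSEM reports such a length as a mean over the isoforms it finds, and the annotation used here lists 416 and 5172 bases for Eif1ax. The length was 1039 to 1311 bases in R442Q and 1171 to 1546 bases in WT late 2-cell embryos, which overlap.

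The copies were more variable. Gm5662 was at 922, 123, 90.4 and 174 CPM in WT late 2-cell embryos 1 to 4 and at 326, 1134, 293, 819 and 685 CPM in R442Q embryos 1 to 5. WT replicate 1 lay within the R442Q range and the other 3 WT embryos below it. The log2 fold change was 1.15 ± 0.62 with an edgeR adjusted p of 0.314, and without WT replicate 1 it was 2.39 with an adjusted p of 0.0331. One WT embryo therefore decided whether Gm5662 was called.

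Gm2016 had 274, 27.9, 29.7 and 80.7 CPM in WT embryos 1 to 4 and 124, 460, 66.0, 178 and 228 CPM in R442Q embryos 1 to 5, and the log2 fold change was 1.19 ± 0.66 (edgeR adjusted p 0.326). Gm2022 had 0 to 2.56 CPM in WT and 0.915 to 15.7 CPM in R442Q embryos, with 3.04 ± 1.22 and an adjusted p of 0.17 in edgeR, and of 0.0332 in DESeq2. Both genes overlapped between groups, and WT replicate 1 was the highest WT embryo for each. Without that embryo the log2 fold change of Gm2016 was 2.25 and that of Gm2022 4.01, with neither called by edgeR.

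The Gm sum was at 1198, 151, 121 and 255 CPM in WT embryos 1 to 4 and at 451, 1608, 359.9, 1013 and 918 CPM in R442Q embryos 1 to 5. Its log2 fold change was 1.17 ± 0.63. The other markers of the 2-cell stage varied in a similar order, with sums of 1487, 140.5, 398 and 583 FPKM in WT and 757, 2550.0, 1800.0, 2016 and 1002 FPKM in R442Q embryos. WT replicate 1 was again the highest WT embryo and R442Q replicate 2 the highest of all. The part of a difference in stage timing between embryos in these values was not tested.

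Eif1a, by contrast, had 89.3, 75.1, 46.6 and 26.7 CPM in WT and 68.2, 68.8, 69.1, 51.9 and 111 CPM in R442Q embryos. Its log2 fold change was 0.43 ± 0.38, with an edgeR adjusted p of 0.558. None of the 12 related genes tested was called, and all 12 had a positive log2 fold change, with a median of 1.44. A direction shared by near-identical genes is not counted as separate evidence, since they share reads. At an unadjusted edgeR p under 0.05, BB287469, Gm2056, Gm21936, Gm5788 and Gm8300 passed, with log2 fold changes of 1.02 to 2.36, and over all genes 21% did so. DESeq2 called BB287469, Gm2056 and Gm21936 higher, of 11 with an adjusted p, against 15% of all such genes. With no filter edgeR called BB287469 and Gm8300, against 3.32% of all genes, and limma on FPKM called Gm2056 and Gm21936, against 4.6%. The edgeR fits without WT replicate 1 and without R442Q replicate 3 called 2 each, against 2.42% and 6.76% of all genes, and the joint fit and the replicate block called 0.

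**Figure D4:**
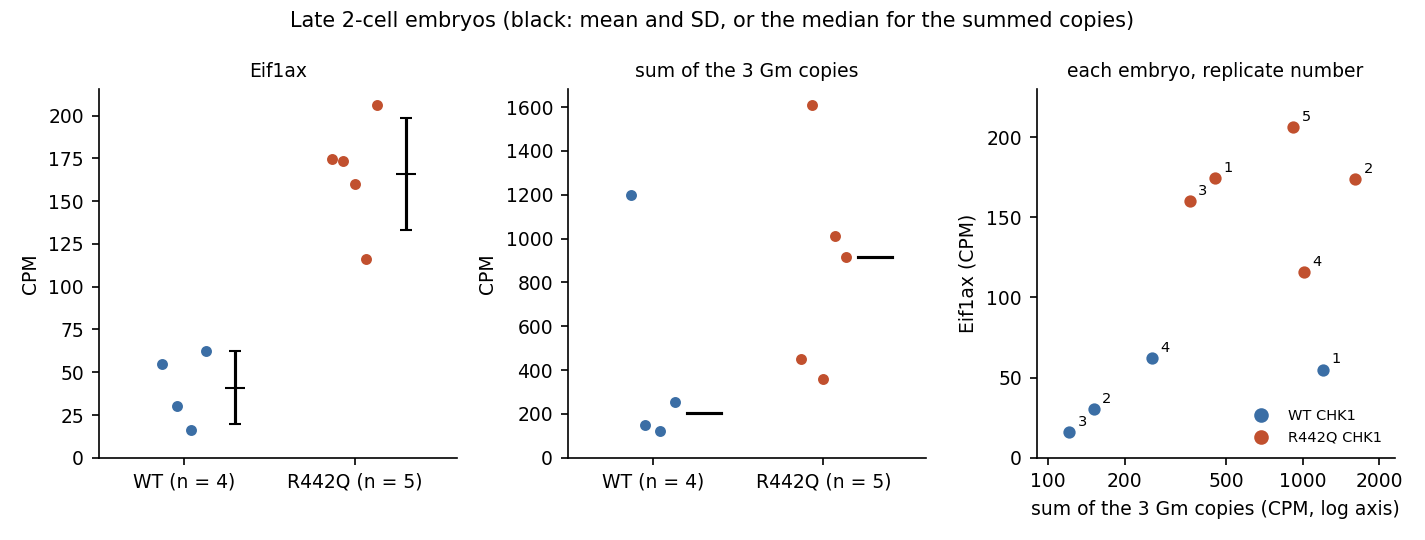
Late 2-cell embryos: CPM of Eif1ax (mean and SD in black) and of the 3 copies summed (medians in black), and the 2 plotted against each other, with replicate numbers. The 5 R442Q embryos lie above the 4 WT embryos for Eif1ax, while WT replicate 1, at 1198 CPM, lies among the R442Q embryos for the copies.

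Across the 9 late 2-cell embryos the level of Eif1ax followed the Gm sum loosely (Pearson r 0.703, Spearman rho 0.533 on log2(CPM + 1), and r 0.462 without the 2 embryos farthest from the median, WT replicate 3 and R442Q replicate 2). The genes outside the 5 whose level was most like the Gm sum, among 8519 genes with a mean of at least 10 CPM, were Gm8300 (r 0.958), Gm5890 (0.949), Tdpoz4 (0.935), Rgcc (0.935) and Gm21762 (0.934). Gm8300 is one of the related genes and Tdpoz4 a 2-cell gene, and Rgcc encodes a regulator of the cell cycle. Without the same 2 embryos these r values were 0.906 to 0.920. Over all genes the median r was -0.028, and the embryos share their stage, genotype groups and, for Gm8300, reads. Over the 20 zygotes and late 2-cell embryos the 5 most alike genes were Gm8300, B020004J07Rik, Gm10662, Gm5891 and Gm9113. No coefficient is given for them because the 2 stages form separate clusters.

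The interaction asks whether the genotype difference itself changed between zygotes and late 2-cell embryos. Over 16199 genes 10.1% were called. Among the 5 genes Eif1ax was the 1 past the threshold, from which nothing is read, since the interaction contains the contrast by which it was chosen. As a description, its difference was larger by 2.10 ± 0.38 on the log2 scale at the late 2-cell stage. For Gm5662 the difference was smaller at the late 2-cell stage, by -3.62 ± 1.23, with an edgeR adjusted p of 0.0625 that missed the threshold. It was -2.05 without R442Q zygote replicate 2, and the fit without a filter on low counts gave an adjusted p of 0.0126. Among the related genes, Gm5788 was called, with -3.95 ± 0.96 and an adjusted p of 0.0124 against a WT zygote group at 0, so its size depends on the model's prior count. With the replicate block 0 of the 12 related genes were called.

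In blastocysts, all grown with the CHK1 inhibitor, Eif1a was lower in every R442Q embryo than in any WT embryo, yet it did not pass the test across all genes. Eif1a (chr18:46597701-46616456, plus strand, 8 annotated transcripts of 726 to 2865 bases) had 88.9 FPKM in the lowest, 103 in the median and 123 in the highest WT blastocyst. R442Q blastocysts had 49.8, 75.8 and 86.2 FPKM. The 2 groups of 7 did not overlap, a pattern found for 0.416% of the 11297 genes tested.

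The mean of Eif1a was 105 ± 11.7 FPKM in WT and 73.0 ± 11.7 FPKM in R442Q blastocysts (SD, n = 7 each), 1.44 times higher in WT. On log2(FPKM + 1) the difference was -0.53 ± 0.17 (SE, limma), where the median over all genes tested was -0.097. The limma p was 0.00576 and the adjusted p 0.325, and across all alternatives the adjusted p ranged from 0.281 to 0.582. At this stage 1 gene was called in all, 0.00885% of those tested, and 7.4% of genes had an unadjusted p under 0.05. Markers of the blastocyst summed to 3171 to 24070 FPKM in WT and 1188 to 12430 FPKM in R442Q embryos, and their part in the difference was not tested.

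Eif1ax had 25.5 to 155 FPKM (median 73.1) in WT and 53.8 to 154 FPKM (median 70.4) in R442Q blastocysts, with a log2 difference of 0.12 ± 0.37 and a limma adjusted p of 0.968. Its SD was 47.1 FPKM in WT and 41.5 FPKM in R442Q blastocysts, against 11.7 for Eif1a in each. Of the 5 genes 3 passed the filter on FPKM, and 0 were called by limma, the only tool used here for FPKM, with 1, Eif1a, at an unadjusted p under 0.05.

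The copies were found in some blastocysts and not in others. Gm5662 was listed at 0 FPKM in 2 of 7 WT and 2 of 7 R442Q blastocysts, with medians of 0.89 and 2.69 FPKM. Its highest value was 48.2 FPKM, in WT replicate 2, where Gm2016 was also highest at 8.82 FPKM. The highest R442Q blastocyst for Gm5662, replicate 4, had 10.1 FPKM. The log2 difference of Gm5662 was -0.01 ± 0.83 with a limma adjusted p of 0.999, and it turned to 0.66 without WT replicate 2. Gm2016 was listed at 0 in 4 WT and 2 R442Q blastocysts, and Gm2022 in all but WT replicate 4, which had 0.26 FPKM. Markers of the 2-cell stage summed to at most 3.99 FPKM in these embryos.

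**Figure D5:**
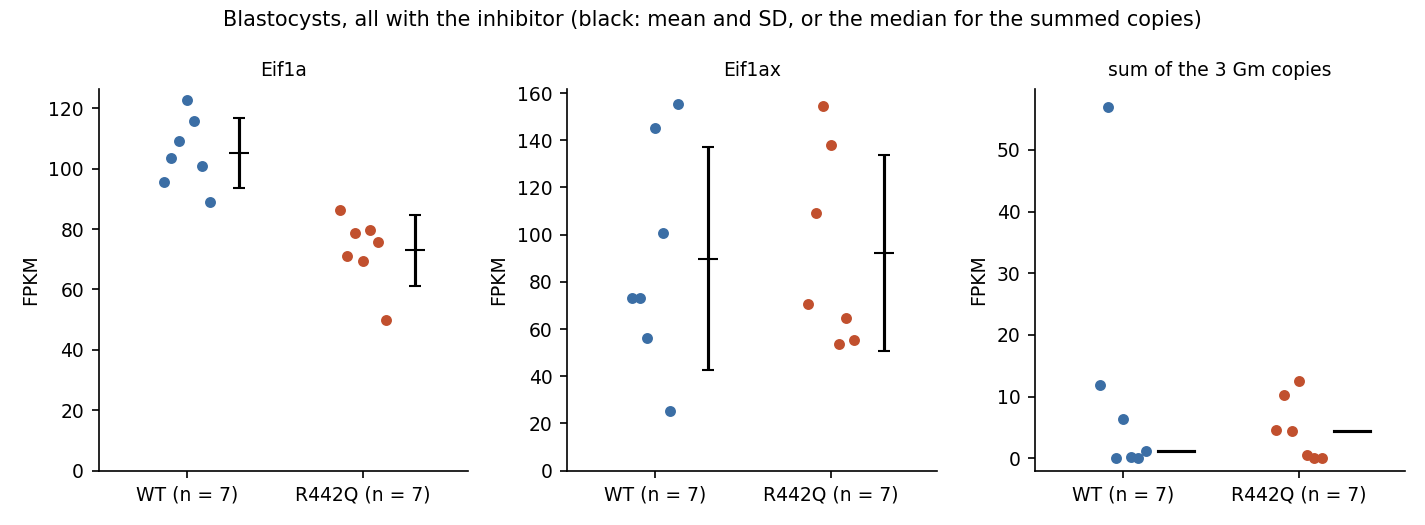
FPKM of Eif1a, Eif1ax (mean and SD in black) and the 3 copies summed (median in black) in blastocysts; each point is an embryo. The 7 R442Q embryos lie at 49.8 to 86.2 FPKM for Eif1a, below the 7 WT embryos at 88.9 to 123, while Eif1ax and the copies overlap.

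The factors that work with eIF1A were read from a list of 23 genes for eIF1, eIF2, eIF3, eIF5, eIF5B and the recycling factor ABCE1. All 23 were tested at each stage. In zygotes 0 were called higher and 4 lower in R442Q embryos, with a median log2 fold change of -0.16, where the median over all genes was 0.006. This share of the list is near the 13.2% called over all genes, and nothing particular to the list is read from it. The 4 encode subunits of eIF3, the scaffold that binds the small ribosomal subunit, and were Eif3c at -1.10 ± 0.17, Eif3e at -0.76 ± 0.13, Eif3g at -0.69 ± 0.22 and Eif3m at -0.53 ± 0.17 (edgeR adjusted p of 0.000735, 0.00153, 0.0461 and 0.0462). Eif3c and Eif3e were called in each of the 11 fits that left out 1 zygote, while Eif3g and Eif3m were lost in 8 of them. The edgeR fit of both early stages called Eif3c alone, against 1.67% of all genes, and the fit with RLE scaling called Eif3c and Eif3e, against 13.1%. With the replicate block 3 were called, Eif3a, Eif3c and Eif3e, against 9.8% of all genes. Where the block took the numbers of the descriptions 2 were called, Eif3c and Eif3e, against 8.08%. DESeq2 called 0 higher and 4 lower, against 13.5% of all genes with an adjusted p. With no filter edgeR called 4 lower, against 6.34%, and limma on FPKM called 6 lower, against 13.9%. Without R442Q replicate 3 edgeR called 5 lower, against 14.2%. At an unadjusted edgeR p under 0.05 Eif3i alone was higher, and Eif3a, Eif3b and Eif3l were lower beside the 4 called in the main fit. Of all genes 27.1% had such a p.

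In late 2-cell embryos 1 of the 23 was called, as were 4.18% of all genes. It was Eif3a, another eIF3 subunit, which was lower in R442Q at -1.43 ± 0.33 (adjusted p of 0.0266), and the list's median was 0.33. The call of Eif3a was lost without WT replicate 2 or 4, without R442Q replicate 2 or 4, and with the replicate block. DESeq2 called 3 others, Eif2s2, Eif3e and Eif3i, higher, against 15% of all genes with an adjusted p. The edgeR fit of both early stages called the same 3 and also Eif1 and Eif2s1 higher, against 15.5% of all genes. Without R442Q replicate 3, Eif1, Eif2s1 and Eif2s2 were called higher, against 6.76%. In the interaction 4 were called, against 10.1% of all genes, with a log2 genotype difference that was higher at the late 2-cell stage. They were Eif3e at 1.70 ± 0.31, Eif3l at 1.21 ± 0.35, Eif2s2, which encodes the beta subunit of eIF2, at 1.16 ± 0.34, and Eif3m at 1.29 ± 0.42 (edgeR adjusted p of 0.00144, 0.0299, 0.0336 and 0.0499). Eif3e was called in all 20 fits that left out 1 embryo. The number called ranged from 1, without WT zygote replicate 3, to 7, without R442Q late 2-cell replicate 3. Of all genes these 2 fits called 7.83% and 14.6%. With the replicate block 2 were called, Eif3e and Eif3l, against 6.44% of all genes. Eif2s2 was called as well where the block took the numbers of the descriptions, against 7.54%. In blastocysts limma called 0 of the 23, with 1, Eif3l, at an unadjusted p under 0.05, and the median was -0.11, where all genes had -0.097.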

How the data were processed

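RNA of single mouse embryos was made into SMART-seq2 cDNA, cut with Tn5 and sequenced as Nextera libraries, per the labels' protocols. Zygote and late 2-cell tables hold expected counts per gene symbol (unnormalised, 90.7% and 89.9% whole) deposited by the authors, and FPKM tables of all 3 stages were scaled by the authors for transcript length and depth. RSEM and mm10 are named, per the submitters' processing notes, with no version. RSEM shares reads between near-identical genes by estimate. The use of strand is not given in the sources used here.

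Groups and replicates were taken from titles. Counts were rounded and fitted with edgeR 4.0.16 (R 4.3.3; filterByExpr with a minimum count of 10, TMM, quasi-likelihood test) for each stage alone and for the interaction in both stages. Blastocyst FPKM was tested with limma 3.58.1, with a trend, on log2(FPKM + 1), for genes at 1 FPKM or more in at least 7 of 14 embryos. Benjamini-Hochberg adjustment ran over all genes tested, with a threshold of 0.05. CPM is count per library total, with no TMM scaling. Reads were amplified and carry no molecular tags, so counts, and the floor of 3, cover counting error only. The fits were tested on simulated data.

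The genes, lists and tests were chosen with earlier results of these data known. Genes could be named if they were among the 5, among the related genes, among the eIF1A partners past the threshold (at most 4 per comparison, by p) or among the 5 most correlated with the Gm sum. Outside this rule, partners called only in an alternative fit, or only at an unadjusted p under 0.05, were named as well. Related genes were found by coding-base identity, since no protein table was used here; of a first list of 10 symbols, 7 met the rule, and Gm6763, with 795 coding bases, did not. Gnai3 was added after its values were seen, as were fits without each blastocyst. Alternatives were DESeq2 1.42.0, RLE scaling, no filter on low values, a joint fit, FPKM in place of counts, a pseudocount of 0.1, TMM on FPKM, a replicate block (by title and, added after seeing the data, by description numbers) and leaving out each embryo.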

Additional observations from a re-analysis of the deposited data

Results flagged for a closer look

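Each gene and the Gm sum were examined in each group for a single embryo far from the rest by Dixon's criterion. Chance meets it in about 1 of 20 groups of normally spread values. It was run here on unlogged CPM and FPKM, which are skewed and in some groups mostly 0, so that rate is no yardstick. It was met 11 times in 35 groups, and the groups are not independent, since the copies share reads and the sum contains them. R442Q zygote replicate 2 stood apart as the highest for Gm2016 at 6.45 CPM, Gm2022 at 0.621 CPM, Gm5662 at 38.8 CPM and the Gm sum at 45.9 CPM. WT late 2-cell replicate 1 was the highest for Gm5662 at 922 CPM and for the Gm sum at 1198 CPM. WT blastocyst replicate 2 was the highest for Gm5662 at 48.2 FPKM and for the Gm sum at 57.0 FPKM. R442Q zygote replicate 5 was the highest for Eif1a, at 2.88 CPM or 27 counts. Gm2022 rested on single embryos in WT zygotes (replicate 3, 0.163 CPM or 1.29 counts) and in WT blastocysts (replicate 4, 0.26 FPKM, with counts unknown).

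The genotype difference of Eif1ax was larger at the late 2-cell stage than in zygotes by 2.10 ± 0.38 on the log2 scale (interaction term in edgeR), and by 1.96 to 2.40 in the 20 fits that left out 1 embryo. The gene was chosen for the late 2-cell difference within this value, so it is a description and not a test.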

How the results depend on the processing

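The number of the 5 genes called in zygotes was 1, where 13.2% of all genes were called. It rose to 2, with Gm2016, without a filter on low counts (6.34% of all genes) and in DESeq2 (13.5% of genes with an adjusted p). In late 2-cell embryos the number was 1 (4.18% of all genes). It was 2, with Gm2022, in DESeq2 (15% of genes with an adjusted p) and 0 with the replicate block (0.418%). Over the fits without 1 embryo it was 0 to 2. It was 2 without WT replicate 1, with Gm5662 (2.42% of all genes), and 0 without WT replicate 2 (0.967%). In the interaction it was 1 (10.1% of all genes), and 2 with no filter, with Gm5662 (4.59%). The log2 fold change of the Gm sum in zygotes was 1.78 on FPKM with limma, and 2.96 (without R442Q replicate 2) to 4.89 over the fits without 1 zygote. The median share of Gm2022 in the late 2-cell sum was 2.04% on FPKM. Signs turned for Eif1ax in zygotes (-0.122 to 0.016 over the fits without 1 embryo, positive without WT replicate 3), Eif1ax in blastocysts (-0.144 to 0.282 without 1 embryo, negative without R442Q replicate 3 or WT replicate 6), the Gm sum in blastocysts (0.037 with a pseudocount of 0.1) and Gm5662 in blastocysts (0.188 with a pseudocount of 0.1, and -0.322 to 0.664 without 1 embryo). In the interaction signs turned for Eif1a (-0.057, and -0.299 to 0.828 without 1 embryo) and for Gm2022 (1.083, and -0.22 without WT zygote replicate 3). The cause was not tested.

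Titles and descriptions number the zygotes and late 2-cell embryos differently. Neither numbering paired the embryos: same-numbered WT and R442Q embryos had correlations of deviations from -0.17 to 0.22 by title and from -0.17 to 0.20 by description. The replicate block took the titles' numbers, and a block by description numbers was added after seeing the data. For Eif1ax in late 2-cell embryos, whose difference is a description, the log2 fold change was 2.18 with the block (adjusted p 0.0608) and 1.83 by description numbers (adjusted p 0.173), against 2.12, so 0 of the 5 genes were called with either block, and neither changed another call among the 5 genes. Over all genes, calls in zygotes fell from 1643 to 270 in the joint fit and to 1004 with the block by description numbers. In late 2-cell embryos 580 calls became 889 without a filter, 1854 in DESeq2, 2507 in the joint fit, 58 with the block, 0 by description numbers (2158 at an unadjusted edgeR p under 0.05) and 142 to 891 without 1 embryo. The interaction's 1639 calls became 1044 with the block and 1089 to 2311 without 1 embryo. The single call in blastocysts became 0 without a filter and with the block, 3 with TMM on FPKM, and 0 to 30 without 1 embryo. Depth limits the copies in zygotes, at 1 to 8.75 summed counts in WT.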
